A study of Mus musculus with 46 samples.

Results

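The 9 genes described here encode amino acid transporters of the plasma membrane: Slc3a2, Slc7a5, Slc7a11, Slc7a1, Slc7a3, Slc6a9, Slc38a2, Slc1a4 and Slc1a5. They were chosen by gene symbol among the 55487 genes listed in each library, with earlier results of these data known. All 9 passed the filter on low counts in the 3 experiments. In livers Slc7a11 and Slc7a3 passed it mainly through knockout libraries, as control livers held 2 to 4 and 0 to 12 counts. RNA was sequenced from mouse islets and livers, from controls and from samples labelled as knockouts of genes that maintain mitochondria. The Tfam islets comprised libraries labelled Tfam control (5 female, 3 male) and Tfam KO (4 female, 2 male). The Clec16a islets comprised libraries labelled Clec control (4 on the diet RFD, 6 on HFD) and Clec KO (4 on RFD, 5 on HFD), and the labels do not write the diets out or give the sex of these libraries. The livers, whose descriptions carry the letters AAV, were 6 controls, 4 Mfn DKO and 3 Tfam KO samples, and their sex is not labelled. Xist, a transcript of female cells, reached 1 CPM in 3 of 6 control, 2 of 4 Mfn DKO and 2 of 3 Tfam KO livers. The main fit of the livers had no term for sex. The protein of Tfam packages the mitochondrial genome and starts its transcription, that of Clec16a acts in mitophagy, and those of Mfn1 and Mfn2 drive fusion of the outer mitochondrial membrane. Islets were cultured overnight and livers flash frozen before RNA was isolated, and the labels call the libraries of a group biological replicates. The promoter or Cre that drove each deletion, the cargo given to control livers, the strain and the age are not given in the sources used here, so the cells in which each gene was lost cannot be stated.

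Amino acid transporters set how fast cells take up or exchange the building blocks of protein, glutathione and nucleotides. Several of them work as a pair of proteins: Slc3a2 encodes the heavy chain 4F2hc (CD98), which carries a light chain such as LAT1 (Slc7a5), the exchanger of large neutral amino acids, or xCT (Slc7a11), which imports cystine in exchange for glutamate and so feeds glutathione synthesis. When translation is slowed by phosphorylation of the initiation factor eIF2α, as happens under amino acid shortage or mitochondrial stress, translation of the transcription factor ATF4 rises, and many amino acid transporters are known targets of ATF4. Slc7a11 is also a known target of NRF2, the factor that responds to oxidants. In β-cells, amino acid uptake feeds both insulin synthesis and insulin secretion, and hepatocytes normally rely on a different set of carriers for their large flux of amino acids.

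Total counts were 55223041 to 83342809 per library in the Tfam islets, 16235173 to 55810879 in the Clec16a islets and 41961114 to 56894510 in the livers. Tfam transcripts were 40.2 ± 2.71 CPM (counts scaled by library size, mean ± SD) in female control and 17.4 ± 1.21 in female KO islets, and 58.9 ± 4.02 in control against 14.7 ± 1.42 in Tfam KO livers. Mfn1 stood at 80.8 ± 7.58 CPM in control and 20.1 ± 4.3 in Mfn DKO livers, and Mfn2 at 157 ± 28.4 and 38.1 ± 5.35. Clec16a counts do not show the genotype: they were 26.5 ± 2.74 CPM in libraries labelled KO and 24.3 ± 3.71 in controls on RFD, and 28.1 ± 3.31 and 26.6 ± 3.6 on HFD, and the deleted stretch of the gene is not given in the sources used here. Directions in that experiment therefore rest on the labels alone. Some libraries stood apart from their group. Replicate 4 of the libraries labelled Clec KO on HFD lay at control levels for 8 of the 9 transporters and is given below with and without, and the 3 Tfam KO livers ran from 0.134 to 135 CPM for Slc7a11. Beta cell markers (9 listed) summed to 189009 to 295657 CPM in Tfam control islets and to 93.5 to 498 in the livers, where Ins1 was at 0 in every library, and hepatocyte markers (9 listed) summed to 97532 to 144883 CPM in control livers.

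Levels are compared between genes as TPM, which divides each count by the transcript's length before scaling, with the mean ± SD over libraries. In control islets the heavy chain and LAT1 led: Slc3a2 stood at 113 ± 19.5 TPM and Slc7a5 at 83.9 ± 25.3 TPM in Tfam control females, and their ranges overlapped. Slc38a2 followed at 28.3 ± 8.19 TPM, then Slc1a4 at 11.3 ± 8.53 and Slc7a1 at 9.86 ± 3.95, and each of these overlapped its neighbour in the order. The lowest were Slc1a5 at 2.22 ± 0.475 TPM, Slc6a9 at 0.992 ± 0.396, Slc7a3 at 0.329 ± 0.161 and Slc7a11 at 0.0832 ± 0.0339. The order was different in control livers, where Slc38a2 (34.3 ± 2.27 TPM) and Slc3a2 (28.1 ± 5.91) overlapped at the top and Slc6a9 came next at 5.69 ± 1.27. Slc7a5 stood at 3.12 ± 0.859 TPM in control livers, and Slc7a1 (0.249 ± 0.0776), Slc7a3 (0.0413 ± 0.0492) and Slc7a11 (0.00854 ± 0.00263) were close to absent. These levels came from separately prepared experiments, and no test was made between them.

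Each knockout was compared with its controls by edgeR's quasi-likelihood test on the counts, with p-values adjusted by Benjamini-Hochberg over all genes tested, and a gene is said to have risen or fallen at an adjusted p of 0.05 or less. In Tfam KO islets 7 of the 9 transcripts rose and none fell, where 20.9% of all 19752 genes tested changed and 11.6% rose. In islets labelled Clec KO 7 of 9 rose on RFD, against 7.52% of 17254 genes changed and 3.99% that rose, and 7 of 9 on HFD, against 9.57% changed and 5.62% that rose. In livers 4 of 9 rose in the Mfn DKO, against 9.87% of 17024 genes changed and 5.23% that rose. In Tfam KO livers 7 of 9 rose, against 29.3% changed and 18.1% that rose, and no member fell in either. These 7 include Slc7a11 and Slc7a3, which passed the filter in livers mainly through knockout libraries. The median log2 fold change of the 9 members was 0.89 in Tfam KO islets, 0.93 and 0.83 in the islets labelled Clec KO on RFD and HFD, 1.1 in Mfn DKO livers and 1.8 in Tfam KO livers, while the medians over all genes tested lay between -0.01 and 0.03. Slc3a2, Slc7a1 and Slc1a4 rose in all 5 comparisons. Slc38a2 was called in Mfn DKO livers and not in the other 4 comparisons, and Slc1a5 in Tfam KO livers and not in the other 4. The comparisons on RFD and HFD used different libraries, but both liver comparisons shared the 6 controls. Because the members were chosen with earlier results of these data known, their counts against all genes are descriptions and no independent test. In these bulk samples a change in the share of cells that express a gene and a change in RNA per cell cannot be told apart.

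**Figure D1:**
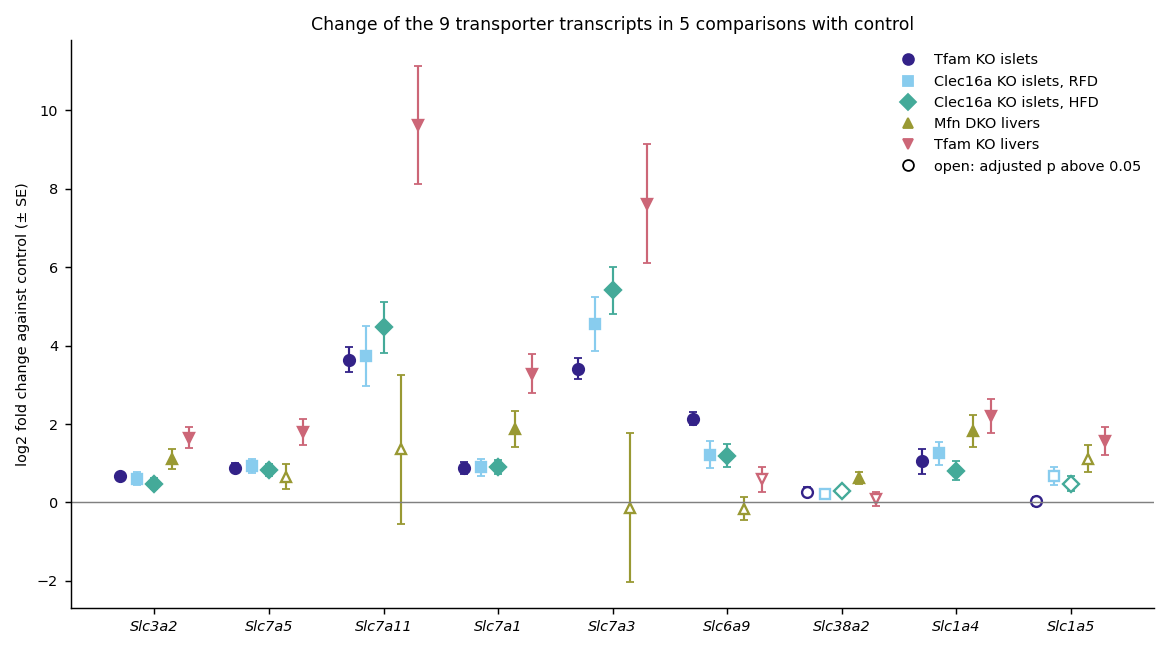
Log2 fold change against control (vertical axis, ± SE from the edgeR fit) of the 9 transporter transcripts in 5 comparisons, with filled symbols at an adjusted p of 0.05 or less. Slc7a11 and Slc7a3 carry the largest changes in islets (3.64 and 3.41 in Tfam KO islets) and the widest errors in livers, while Slc38a2 lies between 0.10 and 0.62 in all 5.

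Slc3a2 (ENSMUSG00000010095, chromosome 19, 8706882 to 8723369, minus strand, GRCm38) encodes the heavy chain that brings its light chains to the cell surface. In the Tfam islets it ranged from 161 to 219 CPM (median 186) over 8 controls and from 255 to 337 CPM (median 308) over 6 KO libraries, where CPM are scaled by TMM library sizes. All 6 KO libraries, of both sexes, lay above all 8 controls, and the level rose 1.6-fold (log2 fold change 0.68, SE 0.08, adjusted p = 2.0e-05). Of the 9 members, 6 separated in this way in the Tfam islets, against 4.83% of all genes tested. In the Clec16a islets on RFD the controls stood at 185, 200.5, 224 and 239.8 CPM and the libraries labelled KO at 324, 325, 342 and 305 CPM. The groups did not overlap, as for 8 of the 9 members and 7.74% of all genes, and the transcript rose by 0.61 (SE 0.16, adjusted p = 0.028) on the log2 scale. On HFD the 6 controls ranged from 184 to 278 CPM (median 216) and the 5 libraries labelled KO stood at 340.3, 355, 308, 191 and 373 CPM. Replicate 4 alone fell among the controls, so the groups overlapped, and the change was 0.48 (SE 0.14, adjusted p = 0.032), or 0.62 (SE 0.11, adjusted p = 3.3e-04) without that library. Each of the Clec16a calls on Slc3a2 was narrow: on RFD it was lost in 5 of 8 fits that left out 1 library, and on HFD in 7 of 11.

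In livers Slc3a2 rose in both knockouts. Controls ranged from 36.7 to 55.5 CPM (median 46.7), Mfn DKO livers stood at 86.3, 126, 81.9 and 102 CPM and Tfam KO livers at 153, 216 and 66.6 CPM. Every Mfn DKO and every Tfam KO liver lay above every control, which held for 6 members in the Mfn DKO, against 8.95% of all genes, and for 4 in the Tfam KO, against 10.7%. The rise was 2.14-fold in the Mfn DKO (log2 fold change 1.1, SE 0.25, adjusted p = 0.019) and 3.14-fold in the Tfam KO (log2 fold change 1.65, SE 0.27, adjusted p = 0.0017). The call in the Mfn DKO was lost without Mfn DKO replicate 2, at 0.96 (SE 0.27, adjusted p = 0.066). Among the Tfam KO livers replicate 2 was highest and replicate 3 lowest, an order seen for 8 of the 9 transporters.

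Slc7a5 (ENSMUSG00000040010, chromosome 8, 121881150 to 121907694, minus strand) encodes LAT1, which trades intracellular glutamine for leucine and other large neutral amino acids. Tfam control islets ranged from 117 to 194 CPM (median 135) and KO islets from 243 to 311 CPM (median 269). The ranges did not meet, and the rise was 1.85-fold (log2 fold change 0.89, SE 0.11, adjusted p = 2.3e-05). On RFD the controls stood at 104, 105, 114 and 129 CPM and the libraries labelled Clec KO at 224, 214, 193 and 229.7 CPM, again without overlap (log2 fold change 0.93, SE 0.19, adjusted p = 0.007). The HFD controls ranged from 105 to 156 CPM (median 122) and the libraries labelled KO stood at 239, 246, 224, 115 and 289 CPM (log2 fold change 0.83, SE 0.16, adjusted p = 0.0032). Without replicate 4, the only one at control level, the log2 change on HFD was 1.0 (SE 0.10, adjusted p = 1.5e-06). Control livers ranged only from 3.35 to 7.02 CPM (median 5.66). Mfn DKO livers stood at 8.76, 8.05, 7.86 and 9.29 CPM, all above the controls, yet the test did not call the change (log2 fold change 0.66, SE 0.31, adjusted p = 0.18), except in a fit of only those groups, where the log2 change was 0.66 (SE 0.18, adjusted p = 0.018). In Tfam KO livers the values were 20.8, 28.6 and 6.55 CPM, the last of which fell within the control range, and the transcript rose 3.48-fold (log2 fold change 1.8, SE 0.33, adjusted p = 0.0026).

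**Figure D2:**
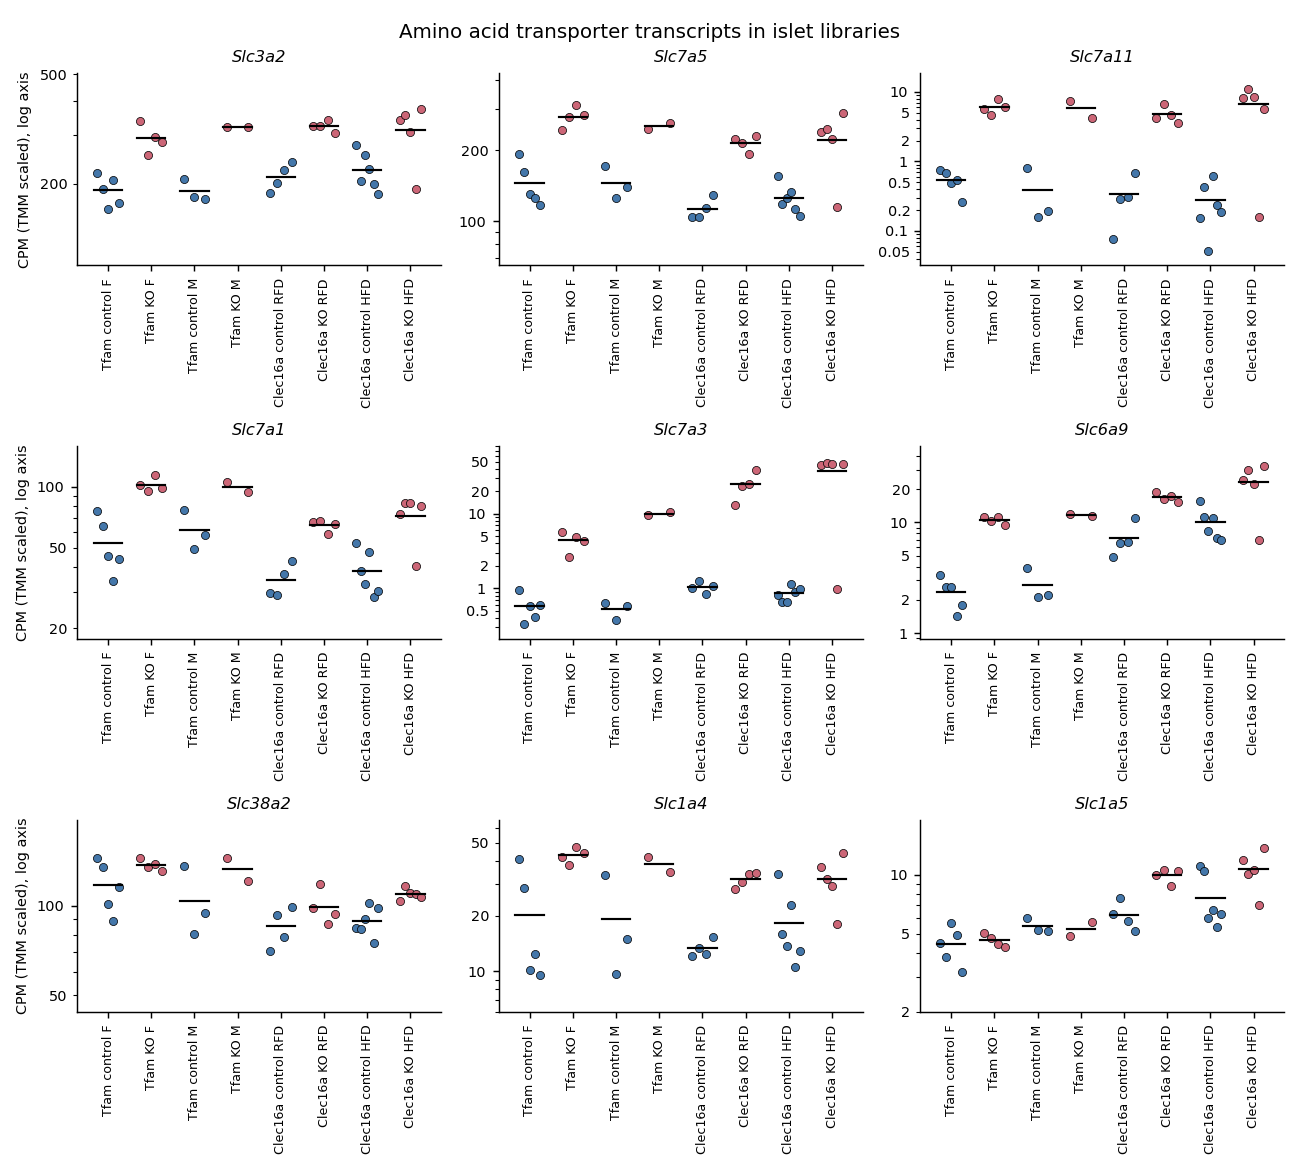
CPM (TMM scaled, log axis) of each transporter in each of the 33 islet libraries, with controls in blue, libraries labelled KO in red and the group mean as a black line. Every Tfam KO library lies above every Tfam control for Slc7a11, Slc7a3 and Slc6a9, and 1 library of Clec16a KO on HFD stays among the controls in all panels except Slc38a2.

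Slc7a11 (ENSMUSG00000027737, chromosome 3, 49892526 to 50443614, minus strand) encodes xCT, the cystine importer. It was the least expressed member in control islets and showed some of the largest changes. Tfam control islets ranged from 0.161 to 0.799 CPM (median 0.515), which corresponds to counts of 12 to 62 per library, and KO islets ranged from 4.26 to 8.04 CPM (median 5.86). No KO library came near the controls, and the level rose 12.5-fold (log2 fold change 3.64, SE 0.31, adjusted p = 5.0e-07). Even after this rise, Slc7a11 stood at 1.23 ± 0.293 TPM in female KO islets, far under Slc7a5 at 211 ± 19.2 TPM. On RFD the controls stood at 0.0768, 0.29, 0.309 and 0.686 CPM and the libraries labelled Clec KO at 4.17, 6.77, 4.6 and 3.6 CPM, without overlap (log2 fold change 3.74, SE 0.77, adjusted p = 0.0076). The HFD controls ranged from 0.051 to 0.608 CPM (median 0.212) and the libraries labelled KO stood at 8.1, 11, 8.38, 0.157 and 5.65 CPM (log2 fold change 4.46, SE 0.66, adjusted p = 4.9e-04). Replicate 4, with 6 counts, lay inside the control range, and without it the log2 change was 4.78 (SE 0.41, adjusted p = 1.2e-07).

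The liver values of Slc7a11 were set by single libraries. Control livers held 2 to 4 counts per library (from 0.0378 to 0.0861 CPM, median 0.0512), Mfn DKO livers stood at 0.0423, 0.116, 0.323 and 0.105 CPM and Tfam KO livers at 2.26, 135 and 0.134 CPM. Against the pooled controls (15 counts), the Tfam KO livers had rate ratios of 40.7 (23.8 to 74.7), 2428 (1471 to 4339) and 2.41 (0.767 to 6.58) for replicates 1, 2 and 3, with exact 95% intervals that cover counting error only. Replicate 2 thus held 10391 reads where replicate 3 held 6. The edgeR test called the change (log2 fold change 9.62, SE 1.5, adjusted p = 0.0013), a fitted size that depends on the prior count, and it was 4.38 (SE 0.77, adjusted p = 0.0051) without replicate 2. DESeq2 returned no adjusted p for Slc7a11 or Slc7a3 in this comparison. In Mfn DKO livers the summed counts were 30 against 15, a rate ratio of 2.62 (1.37 to 5.25) by counting error alone, and the change was not called between libraries (log2 fold change 1.36, SE 1.9, adjusted p = 0.67), with replicate 3 giving 16 of the 30 counts.

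The promoter of Slc7a11 is shown because this transcript changed most among the light chains and because the 8-base core of the C/EBP-ATF response element, the element bound by ATF4 with C/EBP partners, occurs there more than once. From RefSeq windows on GRCm38.p6 (250 bases before to 50 after a start), 9 windows were found for 6 of the members, Slc7a11, Slc6a9, Slc7a1, Slc1a4, Slc38a2 and Slc3a2, and they were searched on both strands for that core, TGATGNAA, and for the core of the antioxidant response element bound by NRF2, TGACNNNGC. The stretches with the first core, each 5′ to 3′ on the gene's own strand, read as follows, with the matches in capitals.
Slc7a11: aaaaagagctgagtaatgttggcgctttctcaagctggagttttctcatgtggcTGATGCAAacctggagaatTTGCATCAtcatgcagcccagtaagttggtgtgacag
Slc1a4: agcctccagcgtgcctcctgcgTTGCATCA
The Slc7a11 stretch runs from base -120 to -11 before the start (chr3:50443624-50443733, minus strand) and holds the core at -66 to -59 and, on the opposite strand, at -47 to -40. The Slc1a4 stretch (chr11:20332710-20332739, minus strand) spans the start, with the core on the opposite strand from base -4 to 4. Of all 32851 windows in the table, 3.97% hold this core. The antioxidant core, present in 12.4% of all windows, was found at Slc6a9 (in 2 of its 3 windows), Slc7a1 and Slc38a2, and not in the Slc7a11 window. A match is a description of these letters only.

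Slc7a1 and Slc7a3 encode CAT1 and CAT3, carriers of the cationic amino acids arginine, lysine and ornithine that work without a heavy chain. Slc7a1 (ENSMUSG00000041313, chromosome 5, 148327410 to 148399904, minus strand), the widely expressed carrier, ranged from 34.3 to 76.3 CPM (median 53.5) in Tfam control islets and from 94.3 to 114 CPM (median 100.2) in KO islets. The groups did not overlap, and the rise was 1.83-fold (log2 fold change 0.87, SE 0.15, adjusted p = 5.5e-04). On RFD, control islets stood at 29.8, 29, 37.2 and 42.8 CPM and those labelled Clec KO at 66.8, 67.7, 58.1 and 65.1 CPM, also without overlap (log2 fold change 0.89, SE 0.21, adjusted p = 0.014). On HFD the controls ranged from 28.4 to 52.6 CPM (median 35.8) and the libraries labelled KO stood at 73.2, 83.2, 82.8, 40.4 and 80.6 CPM (log2 fold change 0.91, SE 0.18, adjusted p = 0.0034, and 1.06, SE 0.15, adjusted p = 3.7e-05 without replicate 4). Control livers held little Slc7a1, from 0.919 to 1.91 CPM (median 1.23). Mfn DKO livers stood at 4.95, 5.95, 3.77 and 4.9 CPM and Tfam KO livers at 13.6, 23.6 and 1.97 CPM, and every one lay above every control. The rise was 3.65-fold in the Mfn DKO (log2 fold change 1.87, SE 0.46, adjusted p = 0.025), a call lost in 5 of 10 fits that left out 1 library, and 9.75-fold in the Tfam KO (log2 fold change 3.28, SE 0.49, adjusted p = 0.0011).

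Slc7a3 (ENSMUSG00000031297, chromosome X, 101079210 to 101086020, minus strand), known mainly from neurons, had the steepest relative rise in the Clec16a islets. In Tfam control islets it ranged from 0.338 to 0.959 CPM (median 0.587). Female KO islets stood at 5.71, 2.65, 4.92 and 4.36 CPM and male KO islets at 9.58 and 10.4 CPM. All 6 exceeded all controls (log2 fold change 3.41, SE 0.27, adjusted p = 2.2e-07). The RFD controls stood at 0.998, 1.27, 0.838 and 1.07 CPM and the libraries labelled Clec KO at 13, 23.4, 24.7 and 38.2 CPM, a 23.4-fold rise without overlap (log2 fold change 4.55, SE 0.69, adjusted p = 0.002). On HFD the controls ranged from 0.662 to 1.13 CPM (median 0.859) and the libraries labelled KO stood at 44.4, 48.1, 46, 0.969 and 47 CPM (log2 fold change 5.41, SE 0.59, adjusted p = 1.0e-04). Of these, 4 agreed within a few CPM and replicate 4 lay within the control range, and without it the change was 5.72 (SE 0.23, adjusted p = 3.1e-12). The rise took Slc7a3 past Slc7a1 per length in the islets labelled KO on HFD (23.7 ± 13.3 against 14.9 ± 4.6 TPM, overlapping), whereas in their controls it stood at 0.475 ± 0.136 against 6.83 ± 1.6 TPM.

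In livers Slc7a3 was at the limit of detection outside a single library. Control livers held 0 to 12 counts, Mfn DKO livers 4, 0, 8 and 2 counts, and Tfam KO livers 26, 3504 and 0 counts. A count of 0 in Tfam KO replicate 3 allows a level of up to 0.0694 CPM. Replicate 2 alone, at 45.5 CPM, carried the change that was called (log2 fold change 7.62, SE 1.52, adjusted p = 0.0041), which became 1.54 (SE 1.14, adjusted p = 0.4) without it. Against the pooled controls the rate ratio was 5.56 (3.01 to 10.4) in replicate 1 and 594 (388 to 960.2) in replicate 2. No difference was called between Mfn DKO and control livers (log2 fold change -0.13, SE 1.9, adjusted p = 0.97).

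Slc6a9 (ENSMUSG00000028542, chromosome 4, 117834506 to 117875198, plus strand) encodes GlyT1, which imports glycine with sodium and chloride. In Tfam control islets it ranged from 1.43 to 3.85 CPM (median 2.41) and in KO islets from 9.44 to 11.8 CPM (median 11.2). The KO values were narrowly grouped, all above the controls, with a 4.39-fold rise (log2 fold change 2.14, SE 0.17, adjusted p = 2.3e-07). The RFD controls stood at 4.87, 6.49, 6.61 and 11 CPM and the libraries labelled Clec KO at 19, 16.5, 17.2 and 15.2 CPM, without overlap (log2 fold change 1.22, SE 0.34, adjusted p = 0.036). This call was lost with the sequencing lane as a covariate, at 1.15 (SE 0.36, adjusted p = 0.06), and in 7 of 8 fits that left out 1 library. On HFD the controls ranged from 6.89 to 15.7 CPM (median 9.76) and the libraries labelled KO stood at 24, 29.9, 22.2, 6.94 and 32.1 CPM (log2 fold change 1.19, SE 0.29, adjusted p = 0.013). Without replicate 4 the change on HFD was 1.43 (SE 0.21, adjusted p = 8.2e-05). In livers the controls ranged from 8.76 to 17.2 CPM (median 14.2), Mfn DKO livers stood at 11.9, 10.4, 14.5 and 12.4 CPM and Tfam KO livers at 22.8, 30.9 and 8.11 CPM. All Mfn DKO livers lay inside the control range (log2 fold change -0.16, SE 0.29, adjusted p = 0.75), and Tfam KO livers lay above it in replicates 1 and 2 and below it in replicate 3 (log2 fold change 0.59, SE 0.31, adjusted p = 0.17). The Tfam KO change was called without replicate 3, at 0.95 (SE 0.22, adjusted p = 0.0042), and when library totals replaced the TMM factors, at 1.1 (SE 0.35, adjusted p = 0.019).

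**Figure D3:**
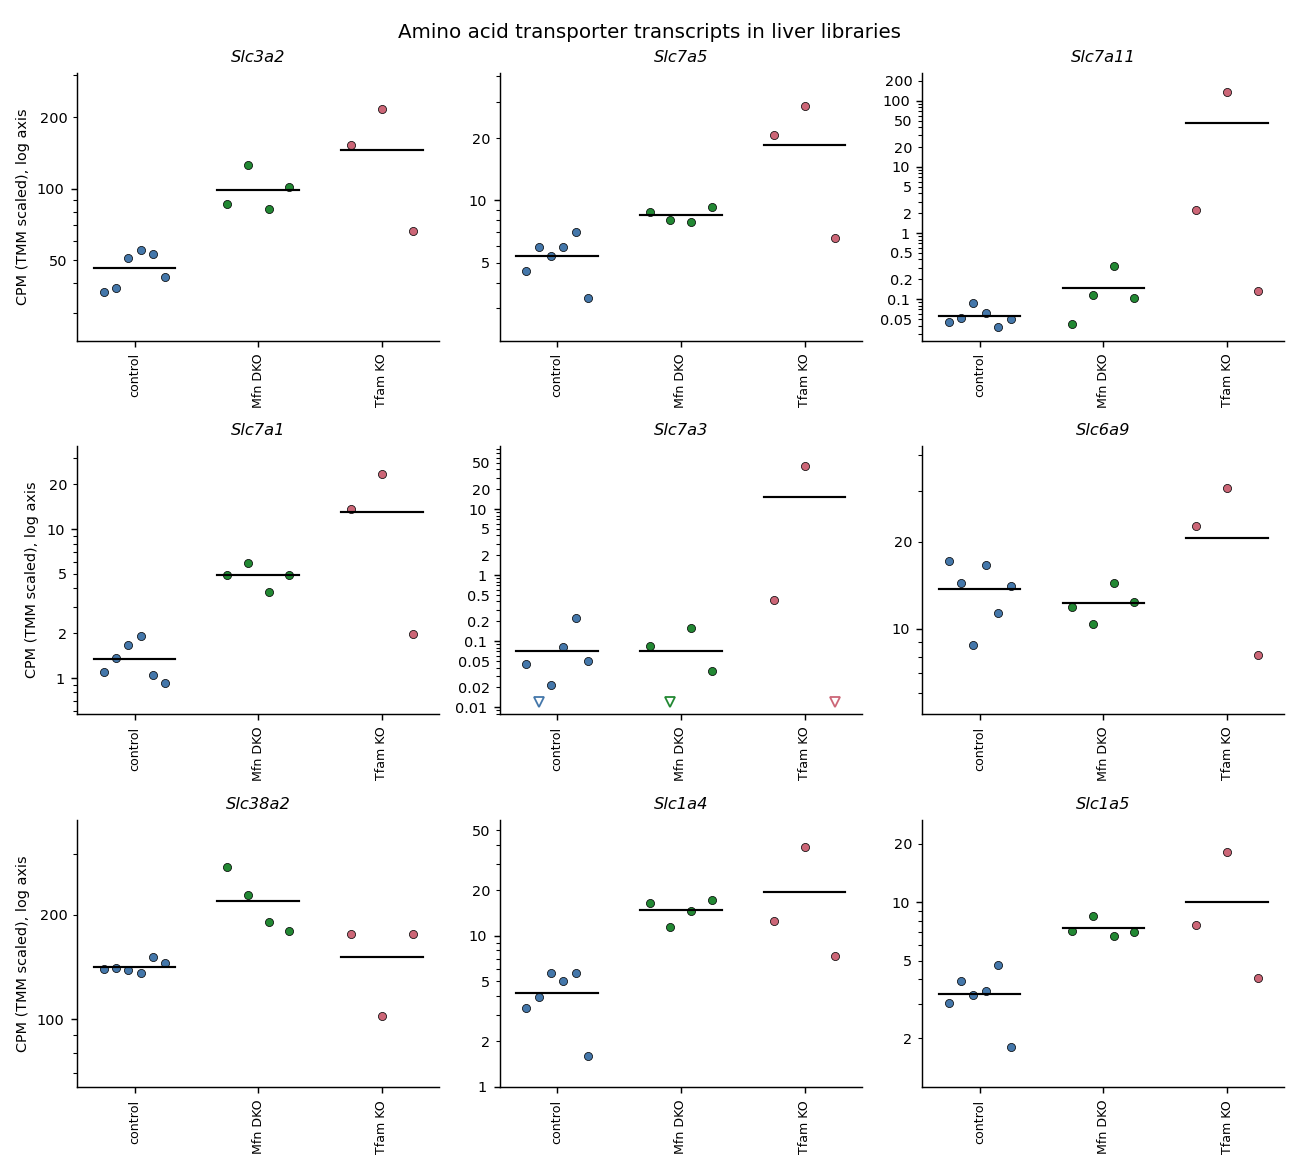
CPM (TMM scaled, log axis) of each transporter in each of the 13 liver libraries, with group means as black lines and libraries with 0 counts as open triangles near the foot of the Slc7a3 panel. Slc3a2, Slc7a1 and Slc1a4 separate both knockouts from the controls, while the 3 Tfam KO livers spread from 0.134 to 135 CPM for Slc7a11.

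Slc38a2 (ENSMUSG00000022462, chromosome 15, 96687392 to 96699730, minus strand) encodes SNAT2, a sodium-coupled importer of small neutral amino acids and a textbook gene of the response to amino acid shortage. No change was called for it in islets. Tfam control islets ranged from 80.05 to 144 CPM (median 108) and KO islets from 121 to 144 CPM (median 136), with no KO library above the highest control (log2 fold change 0.27, SE 0.12, adjusted p = 0.12). The RFD controls stood at 70.3, 93.4, 78.3 and 98.9 CPM and the libraries labelled Clec KO at 98, 118, 86.9 and 93.9 CPM, of which 1 lay above all controls (log2 fold change 0.22, SE 0.12, adjusted p = 0.29). On HFD the controls ranged from 74.6 to 102 CPM (median 87.2) and the libraries labelled KO stood at 104, 116, 110.2, 109.8 and 107 CPM. Here all 5 lay above all controls, the only member without overlap in that comparison (1.24% of all genes), and the adjusted p was just over the threshold (log2 fold change 0.30, SE 0.10, adjusted p = 0.063). With library totals in place of TMM factors the change passed the threshold in Tfam KO islets, at 0.47 (SE 0.14, adjusted p = 0.013), and on HFD, at 0.42 (SE 0.11, adjusted p = 0.015). That scaling, chosen after seeing the data, moved the median of all genes to 0.20 and 0.12 on the log2 scale in those comparisons. Leaving out male control replicate 1 gave 0.34 (SE 0.11, adjusted p = 0.039) in Tfam KO islets, and leaving out control replicate 4 gave 0.34 (SE 0.10, adjusted p = 0.04) on HFD.

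Livers gave Slc38a2 a pattern of its own. Controls were tightly grouped from 136 to 151 CPM (median 140.1), Mfn DKO livers stood at 275, 229, 190.1 and 180.3 CPM and Tfam KO livers at 176, 102 and 176 CPM. It rose 1.54-fold in the Mfn DKO without overlap (log2 fold change 0.62, SE 0.16, adjusted p = 0.03), a call lost in 7 of 10 fits that left out 1 library. In the Tfam KO no change was called (log2 fold change 0.10, SE 0.18, adjusted p = 0.72), and replicate 2, which had the highest level of the other 8 transporters, had the lowest of Slc38a2, below every control. Library totals gave 0.48 (SE 0.14, adjusted p = 0.014) in the Tfam KO, with the median of all genes at 0.46.

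Slc1a4 and Slc1a5 encode ASCT1 and ASCT2, sodium-dependent exchangers of small neutral amino acids such as alanine, serine and cysteine, with ASCT2 also a main route for glutamine. Slc1a4 (ENSMUSG00000020142, chromosome 11, 20302180 to 20332713, minus strand) was uneven among Tfam controls: females stood at 41.1, 28.3, 10.2, 12.5 and 9.6 CPM and males at 33.4, 9.6 and 15 CPM. KO islets ranged from 34.8 to 47.5 CPM (median 41.9). The 3 highest controls, female replicates 1 and 2 and male replicate 1, stood at or near the KO range, and the change of 2.06-fold (log2 fold change 1.05, SE 0.32, adjusted p = 0.027) was not called without female KO replicate 3, at an adjusted p of 0.054, or male KO replicate 1, at 0.058. Of these 3, male replicate 1 and female replicate 1 also had the highest summed level of 32 other ATF4 targets, at 2591 and 2500.4 CPM, while female replicate 2 stood at 2161 CPM, within the 1798 to 2226 CPM of the other 5 controls. The RFD controls stood at 12.1, 13.4, 12.5 and 15.4 CPM and the libraries labelled Clec KO at 28.1, 30.7, 33.9 and 34.2 CPM, without overlap (log2 fold change 1.25, SE 0.29, adjusted p = 0.012). On HFD the controls ranged from 10.5 to 33.7 CPM (median 14.8) and the libraries labelled KO stood at 36.8, 31.8, 29, 18 and 44.1 CPM, of which 2 lay above all controls (log2 fold change 0.81, SE 0.24, adjusted p = 0.038). Without replicate 4 the HFD change was 0.96 (SE 0.23, adjusted p = 0.0051), and the call was lost in 8 of 11 fits that left out 1 library.

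In livers Slc1a4 ranged from 1.59 to 5.71 CPM (median 4.47) in controls and stood at 16.5, 11.4, 14.5 and 17.3 CPM in the Mfn DKO and 12.5, 38.7 and 7.35 CPM in the Tfam KO. Both knockouts lay wholly above the controls, with a 3.54-fold rise in the Mfn DKO (log2 fold change 1.82, SE 0.41, adjusted p = 0.018) and a 4.63-fold rise in the Tfam KO (log2 fold change 2.21, SE 0.44, adjusted p = 0.0039, or 1.24, SE 0.35, adjusted p = 0.035 without replicate 2). The Mfn DKO call was lost without Mfn DKO replicate 1, at 1.77 (SE 0.46, adjusted p = 0.053).

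Slc1a5 (ENSMUSG00000001918, chromosome 7, 16781340 to 16798274, plus strand) did not follow Slc1a4 in the Tfam islets. Its controls ranged from 3.19 to 6.04 CPM (median 5.07) and the KO islets from 4.28 to 5.76 CPM (median 4.8), inside the control range, with a log2 difference of 0.03 (SE 0.12, adjusted p = 0.91) and a 95% interval of -0.21 to 0.26. The RFD controls stood at 6.33, 7.62, 5.82 and 5.18 CPM and the libraries labelled Clec KO at 10, 10.5, 8.75 and 10.4 CPM. These did not overlap, but the adjusted p was over the threshold (log2 fold change 0.67, SE 0.22, adjusted p = 0.077). On HFD the controls ranged from 5.44 to 11.1 CPM (median 6.43) and the libraries labelled KO stood at 11.9, 10.1, 10.6, 7.02 and 13.7 CPM, of which 2 lay above all controls (log2 fold change 0.48, SE 0.19, adjusted p = 0.13). The test was passed without KO replicate 4, at 0.60 (SE 0.18, adjusted p = 0.026), and without control replicate 1, at 0.60 (SE 0.18, adjusted p = 0.045). In livers the controls ranged from 1.79 to 4.75 CPM (median 3.4), Mfn DKO livers stood at 7.11, 8.5, 6.73 and 7.05 CPM and Tfam KO livers at 7.65, 18.2 and 4.07 CPM. The Mfn DKO livers lay above all controls with an adjusted p just over the threshold (log2 fold change 1.12, SE 0.34, adjusted p = 0.053). The rise in Tfam KO livers was called (log2 fold change 1.56, SE 0.36, adjusted p = 0.0079) and became 0.80 (SE 0.29, adjusted p = 0.086) without replicate 2.

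**Figure D4:**
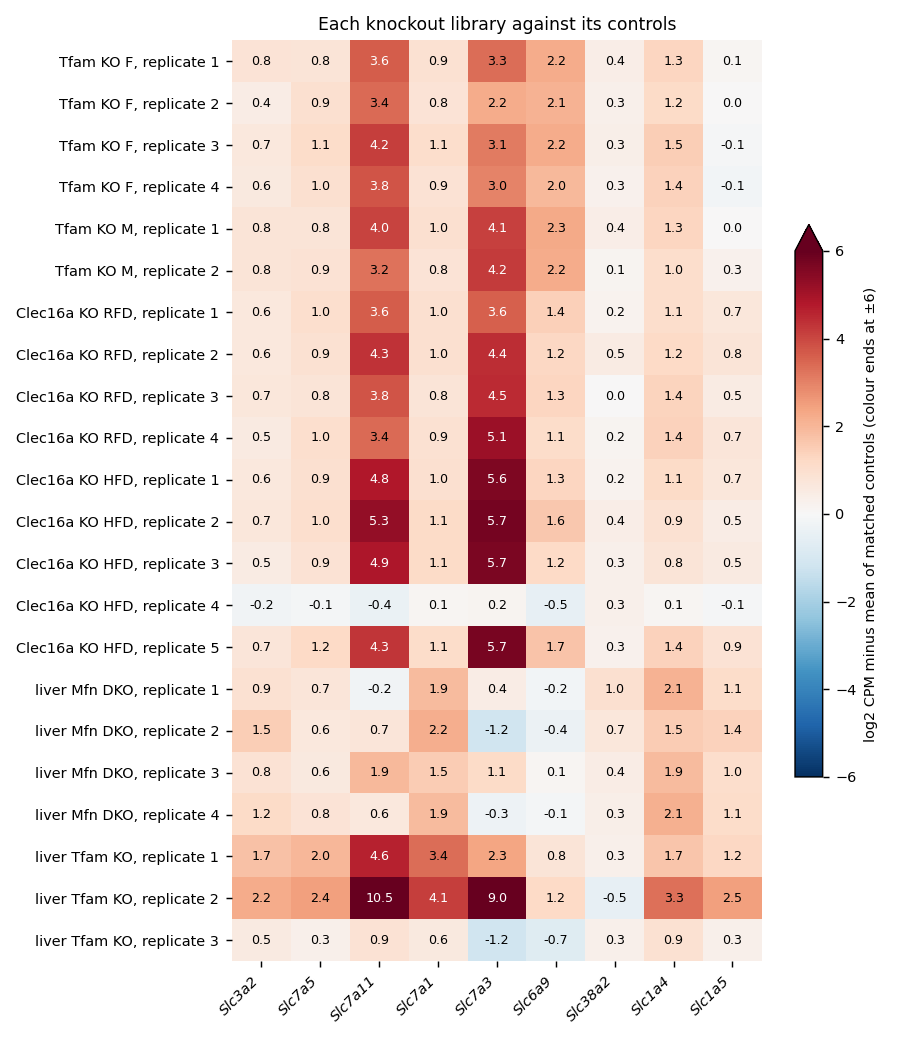
Log2 CPM of each transporter (columns) in each KO library (rows) minus the mean of its controls, with a prior count of 2, in red where higher and blue where lower. Replicate 4 of Clec16a KO on HFD runs from -0.5 to 0.3 across the 9 genes where its 4 group mates reach 4.3 to 5.7 for Slc7a11 and Slc7a3, and the 3 liver Tfam KO libraries differ from each other for most genes.

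The partners of the heavy chain were set side by side per length, since Slc3a2 is shared by 6 light chains: Slc7a5, Slc7a6, Slc7a7, Slc7a8, Slc7a10 and Slc7a11. In Tfam control islets Slc7a5 made up 37.1 to 52.4% of the summed light chain TPM per library and Slc7a8, which encodes the related LAT2, 41.6 to 57.4%. In KO islets Slc7a5 made up 61.9 to 65.5% and Slc7a8 29.4 to 34.1%, without overlap in either. Slc7a8 itself fell slightly in Tfam KO islets, by 0.23 (SE 0.08, adjusted p = 0.041) on the log2 scale. In Clec16a islets on RFD the Slc7a5 share was 35.1 to 40.9% in controls and 43.7 to 53.8% in libraries labelled KO, and on HFD it was 36.8 to 40.7% and 36.1 to 55.8%, with replicate 4 the lowest of the latter. Slc7a11 stayed under 1% of the light chains in every islet library. Control livers shared theirs among Slc7a5 (mean 38.2%), Slc7a7 (29.6%) and Slc7a8 (29.1%), where Slc7a7 encodes y+LAT1. In Tfam KO livers the Slc7a11 share ran from 0.196% to 44.6%, with the top value in replicate 2. These shares are descriptions and were not tested.

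The sum of the 6 light chains over Slc3a2, in TPM, was 1.36 ± 0.251 in 6 Tfam KO islets and 1.64 ± 0.142 in 8 controls. The log2 difference of -0.29 had an exact two-sided permutation p of 0.028, and 0.140 after adjustment over the 5 comparisons. On RFD the ratio was 1.35 ± 0.15 against 1.34 ± 0.0398 (4 libraries each), and on HFD 1.34 ± 0.143 against 1.37 ± 0.0608. In livers, where heavy chain transcripts exceeded those of all light chains together, it was 0.29 ± 0.0454 in controls, 0.233 ± 0.034 in the Mfn DKO and 0.27 ± 0.0804 in the Tfam KO. With Slc7a5 and Slc7a11 alone as light chains the Tfam islet difference turned to 0.23. None of the 5 differences passed the adjusted threshold, with the other 4 adjusted exact permutation p-values between 0.214 and 1.

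**Figure D5:**
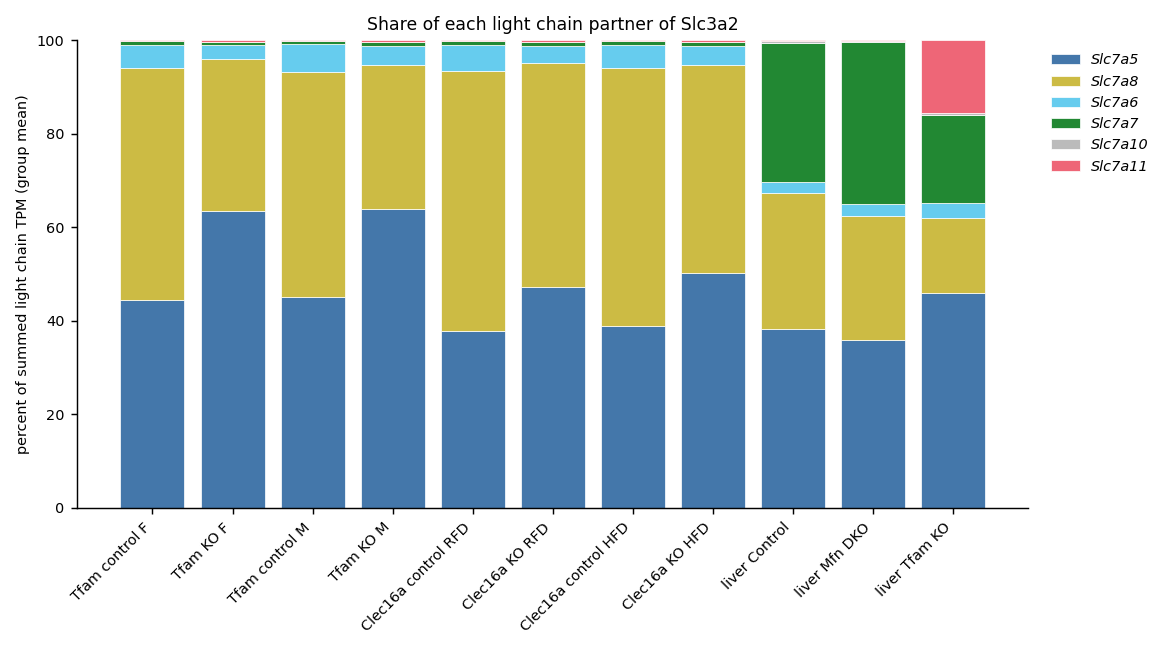
Stacked bars of the mean share (percent of summed TPM) of each light chain partner of Slc3a2 in the 11 groups. Slc7a5 takes a larger share in KO than in control islets (63.5% against 44.5% in Tfam females), and Slc7a11 is visible only in Tfam KO livers, where its mean of 15.6% rests on replicate 2.

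Whether the Tfam effect on the transporters differed between tissues was tested in 1 fit of both Tfam experiments, as the log2 change in islets minus that in livers. The difference was called for 5 of 9 members, against 18.5% of 21096 genes. Slc7a11 (-5.94, SE 1.53, adjusted p = 0.011), Slc7a1 (-2.44, SE 0.53, adjusted p = 0.0042), Slc1a5 (-1.54, SE 0.41, adjusted p = 0.013) and Slc3a2 (-0.94, SE 0.29, adjusted p = 0.027) changed less in islets than in livers. Slc6a9 changed more in islets (1.55, SE 0.41, adjusted p = 0.012). The tissues also differed in experiment, handling and depth, which cannot be told apart from tissue here. The call for Slc3a2 was lost in 4 of 23 fits that left out 1 library, and the count ran from 2 to 7. Without Tfam KO liver replicate 2, the difference was called for Slc7a1, at -1.7 (SE 0.50, adjusted p = 0.037), and Slc6a9, at 1.97 (SE 0.42, adjusted p = 0.0054), and no longer for Slc7a11, at -0.70 (SE 0.85, adjusted p = 0.7). The calls for Slc3a2 and Slc1a5 were also lost in that fit. Slc6a9 was not called with library totals, at 1.22 (SE 0.46, adjusted p = 0.058).

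Tfam KO and Mfn DKO livers were also compared with each other, and edgeR called none of the 9 members, where 0.294% of all genes differed. Of the members, 6 had an unadjusted p under 0.05, as did 3480 of all 17024 genes tested. DESeq2 called 1 member, Slc7a5, and its share over all genes is not given here. The log2 difference, Tfam KO minus Mfn DKO, was 8.27 (SE 1.62, adjusted p = 0.058) for Slc7a11, 7.75 (SE 1.82, adjusted p = 0.096) for Slc7a3, 1.42 (SE 0.53, adjusted p = 0.17) for Slc7a1 and 1.14 (SE 0.36, adjusted p = 0.12) for Slc7a5. Slc38a2 was the only member lower in the Tfam KO (-0.53, SE 0.19, adjusted p = 0.16). The comparison turned on Tfam KO replicate 3: without it 7 members were called, all except Slc1a4 and Slc1a5, with Slc38a2 the one that was lower, at -0.66 (SE 0.21, adjusted p = 0.043). The share of all genes called in that fit is not given here, so this count is not read as particular to the transporters. Slc7a11 was also called without Tfam KO replicate 1, at 8.83 (SE 1.47, adjusted p = 0.034).

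No member was called for a dependence of the Tfam effect on sex, or for diet. Levels in males and females were not tested against each other. The effect of Tfam KO differed between males and females for 0 of 9 members by edgeR, which called 0 of all 19752 genes (0%, with 1230 at an unadjusted p under 0.05 and 34 called by DESeq2) and had 1 member under an unadjusted p of 0.05. DESeq2 also called 0 members. That member was Slc7a3, which lies on the X chromosome: the KO effect was larger in males by 1.3 (SE 0.46, adjusted p = 0.69) on the log2 scale, and both male KO libraries lay above all 4 female ones. On HFD against RFD, 0 of 9 members were called by edgeR in control islets (0.0406% of all genes), in islets labelled Clec KO (0.0116%) or for the difference between these effects (0%, with 406 at an unadjusted p under 0.05 and 20 by DESeq2), with 0 members under an unadjusted p of 0.05 and 0 called by DESeq2 in each. Slc7a3 in the islets labelled KO was 0.57 (SE 0.53, adjusted p = 1) higher on HFD, and 0.89 (SE 0.21, adjusted p = 0.13) without replicate 4. Slc6a9 was 0.46 (SE 0.32, adjusted p = 1) higher on HFD in controls and 0.44 (SE 0.32, adjusted p = 1) in the islets labelled KO.

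The Clec16a libraries were read on lanes 7 and 8, per the names of the deposited files, and each lane held control and KO libraries of both diets. Within each lane the mean log2 CPM of the libraries labelled KO exceeded that of the controls for all 9 members on both diets. On RFD the difference in lanes 7 and 8 was 4.23 and 3.7 for Slc7a11, 4.28 and 4.54 for Slc7a3, and 1.59 and 0.94 for Slc6a9. On HFD it was 4.89 and 2.89 for Slc7a11 and 5.89 and 3.63 for Slc7a3. Lane 8 held a single RFD library labelled KO, and the HFD library labelled KO replicate 4. No batch is named for the other experiments.

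Markers of other cells moved with some groups. The 8 endothelial markers summed to 335 to 361 CPM in RFD controls and 541 to 669 in islets labelled Clec KO, and to 309 to 403 and 359 to 637 on HFD, where replicate 4 stood at 359. Of those tested, 5 of 7 rose on RFD and 6 of 7 on HFD, as did 2 and 5 of 8 fibroblast markers. Over all genes tested, 20.9% changed and 11.6% rose in Tfam KO islets, 7.52% and 3.99% on RFD and 9.57% and 5.62% on HFD. In livers 9.87% changed and 5.23% rose in the Mfn DKO, and 29.3% and 18.1% in the Tfam KO. Beta cell markers summed to 189009 to 295657 CPM in Tfam control and 106178 to 141930.0 in KO islets, and all 9 fell. They summed to 211262 to 349312 CPM in RFD controls and 197171 to 230355 in islets labelled Clec KO, and to 233900.0 to 339919 and 139009 to 251082 on HFD, where 1 of 9 fell on each diet. Their mean log2 CPM was lower in every library labelled Clec KO than in every control of the same diet, at 10.91 to 11.09 against 11.16 to 11.46 on RFD and 10.68 to 11.30 against 11.32 to 11.70 on HFD. Acinar markers overlapped widely, 925 to 8611 CPM in Tfam control and 1351 to 15568 in KO islets, and 3973 to 8559 and 1790.4 to 11499 on RFD. With the acinar score as a covariate, 7, 8 and 7 members were called in Tfam, RFD and HFD islets. In those fits 21.6%, 10.5% and 11.3% of all genes were called. Hepatocyte markers summed to 60569, 22802 and 96374 CPM in Tfam KO livers 1, 2 and 3, in the reverse order of Slc3a2, Slc7a5 and Slc7a1, and 5 of 9 fell. In Mfn DKO livers they summed to 80166 to 98821 CPM, against 97532 to 144883 in controls, with 1 of 9 higher and 1 lower, and their mean log2 CPM was 11.79 to 11.93 against 12.26 to 12.43 in controls. The 8 fibroblast markers had a mean log2 CPM of 3.25 to 3.67 in control, 3.91 to 4.24 in Mfn DKO and 3.79 to 4.01 in Tfam KO livers, without overlap of either knockout with the controls, and 2 of 8 rose in each. The part of these cells in the transporter changes was not tested beyond the acinar score.

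Other amino acid transporters did not move as a block. Of 43 listed, 33 were tested in the Tfam islets, and 6 rose and 5 fell, where 20.9% of all genes changed and 11.6% rose, with a median log2 fold change of -0.14 against -0.01 for all genes. The glutamate transporter Slc1a7 rose, with controls in the range 0 to 0.0526 CPM and KO islets in the range 0.71 to 2.69 CPM. So did Slc1a3, another glutamate transporter, with controls at 0 to 0.416 CPM and KO islets at 0.663 to 3.08 CPM. The log2 fold changes follow in parentheses. The glutamine carriers Slc38a7 (0.92, SE 0.12, adjusted p = 4.3e-05) and Slc38a3 (1.76, SE 0.32, adjusted p = 8.4e-04) also rose, and Slc16a10, which carries aromatic amino acids, fell (-0.53, SE 0.07, adjusted p = 4.1e-05). On RFD 5 rose and 2 fell of 30, where 7.52% of all genes changed and 3.99% rose, among them Slc1a1, the neuronal and epithelial glutamate carrier (1.24, SE 0.31, adjusted p = 0.017), Slc6a17 (0.85, SE 0.19, adjusted p = 0.012), Slc1a7 (0 to 0.0669 CPM in controls, 0.282 to 1.45 in those labelled KO), Slc43a2 (-0.60, SE 0.13, adjusted p = 0.009) and the lysosomal carrier Slc36a1 (-0.54, SE 0.12, adjusted p = 0.012). On HFD 3 rose and 3 fell of 30, where 9.57% of all genes changed and 5.62% rose, led by Slc1a1 (1.52, SE 0.26, adjusted p = 0.0014), Slc43a2 (-0.47, SE 0.11, adjusted p = 0.01) and Slc1a7 (0 to 0.102 CPM in controls, 0 to 1.31 in those labelled KO), with Slc6a15 (-1.13, SE 0.29, adjusted p = 0.018) and Slc6a17 (0.59, SE 0.16, adjusted p = 0.027).

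In Mfn DKO livers, where 9.87% of all genes changed and 5.23% rose, 3 of 24 tested rose and none fell: Slc36a4 (0.44, SE 0.09, adjusted p = 0.012), Slc7a7 (0.99, SE 0.21, adjusted p = 0.013) and the glutamine carrier Slc38a1 (0.85, SE 0.25, adjusted p = 0.047). In Tfam KO livers, where 29.3% of all genes changed and 18.1% rose, 2 of 24 rose, Slc38a7 (1.0, SE 0.17, adjusted p = 0.002) and Slc7a6 (2.55, SE 0.63, adjusted p = 0.011), and 4 fell. Slc7a6 stood at 0.182 to 0.581 CPM in control and 0.313 to 5.7 CPM in Tfam KO livers, so the ranges overlapped. Those that fell included carriers typical of hepatocytes: Slc38a3 was at 1533 to 2048 CPM in controls and 369.8 to 1298 in Tfam KO livers (-1.03, SE 0.32, adjusted p = 0.028). Slc38a4 was at 837 to 1537 and 402 to 834 CPM (-0.93, SE 0.26, adjusted p = 0.019). Slc1a2, the glutamate carrier of perivenous hepatocytes, was at 214 to 320.1 and 21.8 to 173 CPM (-1.77, SE 0.53, adjusted p = 0.025). Slc38a3 rose in Tfam KO islets and fell in Tfam KO livers, and the difference between tissues was 2.93 (SE 0.50, adjusted p = 8.4e-04).

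The wider programme of ATF4 targets was followed with 32 genes that include none of the 9 members. In Tfam KO islets 29 rose, led by Ddit3 (2.8, SE 0.14, adjusted p = 1.2e-09) and Trib3 (5.25, SE 0.30, adjusted p = 3.7e-09), both known mediators of the stress response. In islets labelled Clec KO 22 rose on RFD and 20 on HFD, with Pycr1, an enzyme of proline synthesis, at 1.99 (SE 0.31, adjusted p = 0.0021) and 2.0 (SE 0.26, adjusted p = 2.6e-04). In livers 17 rose in the Mfn DKO and 26 in the Tfam KO, with Trib3 at 4.22 (SE 0.34, adjusted p = 3.0e-05) and 5.43 (SE 0.36, adjusted p = 9.7e-06), and no gene of this list fell in any of the 5. Its median log2 fold changes were 1.12, 0.88, 0.74, 1.36 and 2.13, in the order Tfam islets, RFD, HFD, Mfn DKO and Tfam KO livers. Over all genes tested, 11.6% rose in Tfam KO islets, 3.99% on RFD, 5.62% on HFD, 5.23% in Mfn DKO and 18.1% in Tfam KO livers. Of 20 NRF2 targets, 10 rose and 0 fell in Tfam KO islets, 3 and 1 on RFD, 4 and 1 on HFD, 2 and 1 in Mfn DKO livers and 9 and 2 in Tfam KO livers, against 20.9%, 7.52%, 9.57%, 9.87% and 29.3% of all genes changed, with medians of 0.30, 0.07, 0.01, 0.44 and 0.55. Hmox1, the heme oxygenase, rose in Tfam KO islets (2.54, SE 0.16, adjusted p = 9.6e-09), Mfn DKO livers (0.96, SE 0.20, adjusted p = 0.013) and Tfam KO livers (1.43, SE 0.22, adjusted p = 0.0012). The summed level of the ATF4 programme was 1992 CPM in replicate 4 of Clec KO on HFD and 4233, 3877, 3555 and 4071 in its group mates, against 2099 to 2499 in HFD controls. It was 4491, 4772 and 2558 CPM in the 3 Tfam KO livers and 1699.6 to 1975 in control livers. In replicates 1 and 2 these sums were 4491 and 4772 CPM, and Slc7a11 stood at 2.26 and 135 CPM. Over the 3 Tfam KO livers the mean log2 CPM of the programme ran from 4.95 to 6.62 and Slc7a11 from 0.134 to 135 CPM. Slc38a2 had another order there. A link between this programme and the transporters was not tested.

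For each member the most alike genes were sought among 14504 genes outside the 9 members, by Pearson correlation of log2 CPM over all 46 libraries after subtracting the control mean of each experiment. The libraries share the contrast of knockout and control, so these values describe likeness only. Between members, r was 0.947 for Slc3a2 and Slc7a1 and 0.914 for Slc7a11 and Slc7a3, and Slc1a4 had 0.878 with Slc7a5, 0.876 with Slc7a1 and 0.868 with Slc3a2. Outside the members, the 3 closest were Mgat4b (0.94), Psat1 (0.93) and Phgdh (0.92) for Slc3a2, Aldh1l2 (0.92), Agap1 (0.91) and Adm2 (0.91) for Slc7a5 and Map4 (0.91), Psph (0.91) and Unc5b (0.91) for Slc7a11. They were Aldh18a1 (0.95), Phgdh (0.94) and Psat1 (0.94) for Slc7a1, Unc5b (0.93), Stc2 (0.89) and Psph (0.88) for Slc7a3 and Pacsin2 (0.90), Eif4ebp1 (0.88) and Snx33 (0.87) for Slc6a9, and Tmem268 (0.89), Adm2 (0.85) and Psat1 (0.85) for Slc1a4 and Phgdh (0.89), Septin11 (0.88) and Npdc1 (0.88) for Slc1a5. Psat1, Psph and Phgdh encode enzymes of serine synthesis, Aldh1l2 a mitochondrial enzyme of folate metabolism and Aldh18a1 the first enzyme of proline synthesis. Slc38a2 had the least close matches outside the members, Cebpg (0.72), Zfp366 (0.69) and Rbm15 (0.68).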

How the data were processed

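RNA of 46 mouse libraries was sequenced in pairs of 151 bases on a NovaSeq-6000, per the labels' protocols. The submitters' processing notes name STAR 2.6.1b, RSEM 1.3.1, featureCounts, DESeq2, FastQC 0.11.8, MultiQC and the build GRCm38, without saying which step used which, so it is not known how reads shared by related genes or opposite strands were counted. The authors deposited whole-number read counts, TPM and CPM per gene, per the file headers, and the CPM equal each count divided by the library total. Groups were taken from the labels. Counts were tested with edgeR 4.0.16 (R 4.3.3), with TMM factors, filterByExpr and the quasi-likelihood test. The Tfam islets were fitted with sex as a term, the Clec16a islets and the livers each as 1 fit of all their groups, and both Tfam experiments together for the tissue difference. P-values were adjusted by Benjamini-Hochberg over all genes tested in each of 11 comparisons and called at 0.05. The CPM printed were recomputed from the counts with TMM factors, log2 CPM used a prior count of 2, and the TPM are those deposited by the authors. SE is the log2 fold change divided by the square root of F. The ratio of light to heavy chain was tested by an exact permutation over libraries. The scripts were tested on simulated data. Intervals and limits for counts of 0 cover counting error only. Alternatives were the size factors and the Wald test of DESeq2 1.42.0, other filters, the replicate number as a block, covariates and leaving out each library.

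Every member was named, and from each gene list the genes with the smallest adjusted p in a comparison. The members and the lists were chosen with earlier results of these data known.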

Additional observations from a re-analysis of the deposited data

Results flagged for a closer look

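Replicate 4 of the islets labelled Clec KO on HFD stood far below its 4 group mates for 6 transporters: Slc7a11 at 0.157 CPM, Slc7a5 at 114.6, Slc3a2 at 191.1, Slc7a1 at 40.4, Slc7a3 at 0.969 and Slc6a9 at 6.94 CPM. On the log2 CPM scale, the gap to the nearest library divided by the range of the group exceeded Dixon's critical value of 0.71 for each. Of 72 such checks of a group and a member, 6 were met, all in this library, and chance alone meets about 1 in 20, although checks in 1 library are not independent of each other. The checks covered groups of at least 4 libraries. The 3 Tfam KO livers and the male Tfam islets were therefore not checked.

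The effect of Tfam KO differed between islets and livers by a test of the difference itself for 5 members. On the log2 scale the change in islets minus that in livers was -5.94 for Slc7a11, -0.94 for Slc3a2, -2.44 for Slc7a1, -1.54 for Slc1a5 and 1.55 for Slc6a9. Tissue and experiment cannot be told apart in this difference. Without Tfam KO liver replicate 2, as given above, it stayed called for Slc7a1 and Slc6a9 and was no longer called for Slc7a11, Slc3a2 or Slc1a5. Control livers held only 2 to 4 counts of Slc7a11 per library.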

How the results depend on the processing

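Deviations of same-numbered libraries had median correlations of 0.0653 in Tfam islets, -0.0163 in Clec16a islets and 0.0873 in livers, with lowest values of -0.153, -0.253 and -0.343. For libraries with different numbers the medians were -0.0117, -0.0123 and -0.045. These medians show no strong pairing by replicate number and do not settle whether libraries were paired. With the replicate number as a block, the members called were 5 instead of 7 on RFD, 4 instead of 7 on HFD, 0 instead of 4 in Mfn DKO livers, 0 instead of 7 in Tfam KO livers and 2 instead of 5 for islets minus livers. Over all genes the block also lowered the calls, from 7.52% to 5.67% on RFD and from 9.57% to 5.65% on HFD. For the livers and the other settings below, the share of all genes called is not given here. Those counts are not read as particular to the transporters. Under the block, uncalled log2 values that changed sign were Slc1a5 in Tfam islets (-0.026), Slc7a5 (-0.000339) and Slc1a4 (-0.000747) for diet in islets labelled KO, Slc7a1 for genotype by diet (-0.024) and Slc7a3 in Mfn DKO livers (1.40). Tfam KO against Mfn DKO livers gave 2 members with library totals (chosen after seeing the data), 1 without the filter and 1 by DESeq2, instead of 0. Fitting only the compared groups lost Slc3a2 and Slc1a4 and gained Slc38a2 on HFD (6 called), gained Slc1a5 on RFD (8 called), and gained Slc7a5 and Slc1a5 in Mfn DKO livers (6 called), and it called 6 members in Tfam KO livers, where Slc7a11 gave no value. Other uncalled values that changed sign did so with library totals for Slc3a2 by diet in islets labelled KO (0.034), Slc7a5 (0.00365) and Slc6a9 (0.093) for genotype by diet, and Slc7a3 (0.047) and Slc6a9 (0.037) in Mfn DKO livers. The acinar score did so for Slc7a11 in genotype by sex (-0.28), Slc7a11 (0.032) and Slc1a4 (-0.00904) by diet in controls, and Slc7a5 (-0.091), Slc1a4 (-0.50) and Slc1a5 (-0.20) by diet in islets labelled KO. The lane did so for Slc6a9 in genotype by diet (0.058) and the Xist level for Slc7a3 in Mfn DKO livers (0.23).

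Light to heavy chain log2 differences changed sign from counts in place of TPM on RFD (-0.029) and in Tfam KO livers (0.23), and with only Slc7a5 and Slc7a11 in Tfam islets (0.23), on HFD (0.33) and in Tfam KO livers (0.48). When single libraries were left out, 1 to 4 members were called in Mfn DKO livers, 0 to 7 for Tfam KO against Mfn DKO and 2 to 7 for islets minus livers. The light to heavy chain difference then ran from -0.35 to -0.22 in Tfam islets, -0.056 to 0.074 on RFD, -0.10 to 0.00135 on HFD and -0.35 to 0.084 in Tfam KO livers.

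Uncalled log2 values that changed sign when 1 library was left out ran as follows. In Tfam islets Slc1a5 ran from -0.038 to 0.088. For genotype by sex Slc7a11 ran from -0.043 to 1.52, Slc7a5 from -0.25 to 0.00107, Slc6a9 from -0.24 to 0.25, Slc38a2 from -0.029 to 0.37 and Slc1a4 from -0.52 to 0.56. By diet in controls Slc7a11 ran from -0.61 to 0.36 and Slc38a2 from -0.023 to 0.14. By diet in islets labelled KO Slc7a5 ran from -0.064 to 0.21, Slc3a2 from -0.12 to 0.086, Slc1a4 from -0.14 to 0.15 and Slc1a5 from -0.00277 to 0.22. For genotype by diet Slc7a5 ran from -0.21 to 0.064, Slc3a2 from -0.20 to 0.00881, Slc7a1 from -0.10 to 0.17 and Slc6a9 from -0.30 to 0.22. In livers Slc7a3 ran from -0.92 to 0.28 in the Mfn DKO and Slc38a2 from -0.046 to 0.32 in the Tfam KO, and between these knockouts Slc1a4 ran from -0.59 to 0.77 and Slc1a5 from -0.32 to 0.81. For islets minus livers Slc7a3 ran from -4.91 to 2.02 and Slc38a2 from -0.00391 to 0.33.

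The cause of these changes was not tested. Adjusted p-values that DESeq2 did not return, and members removed by a stricter filter, gave no value. Slc7a11 and Slc7a3 in livers rest on 12 or fewer counts in each control library, which limits the precision of their changes there.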
